A study of Mus musculus with 4 samples.

Results

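The genes described here are 37 immediate early, feedback, growth arrest and heat shock genes of the mouse, chosen by symbol from a given list, out of 28694 genes in the count files. Each of the 37 symbols matched 1 gene, and all 37 had enough UMIs (unique molecular identifiers, which count single RNA molecules) to be tested in every main comparison. They were followed in single intestinal epithelial cells of 4 droplet libraries. Of these, 2 came from distal colon (DC) and the other two from section 8 of small intestine (Si8). All mice were RedMUC298trTg animals of 6 to 8 weeks, which carry an mCherry reporter, and sorting used the mCherry signal. The promoter of the transgene and the number of mice per library are not given in the sources used here, so p-values measure only the spread between these libraries, which may be technical. In both regions the epithelium was released with EDTA and DTT and then digested with collagenase I and DNase I at 37 °C for 30 min. No library of cells that had not been released in this way was used here, so levels set in the tissue and levels set during release cannot be told apart.

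Immediate early genes are switched on within minutes of a stimulus without the need for new protein synthesis, mostly through factors that are already present in the cell and are activated by MAP kinase, calcium or cyclic AMP signalling. Many encode transcription factors, such as the Fos and Jun proteins that pair to form AP-1, and others encode phosphatases and mRNA decay factors that shut the response down again. Heat shock genes encode chaperones that hold or refold damaged proteins, and heat shock factor 1 drives them through a repeated short element. Both groups are known to rise while tissue is taken apart into single cells.

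Promoter windows of RefSeq (GRCm38.p6), from 250 bases before to 50 bases after the gene start, were found for 32 of the 37 genes. Those not matched were Egr1, Ier2, Rasd1, Hspa8 and Hsp90aa1. Windows were searched on both strands for 4 motifs: the heat shock element GAANNTTC, the AP-1 site TGANTCA, the cyclic AMP element TGACGTCA and the CArG box of the serum response element. These motifs do not contain each other. The heat shock element was found in 5 of the 6 heat shock genes with a window, namely Hspa1a, Hspa1b, Hsph1, Hspb1 and Dnaja1, and in Jun among the 26 others, counting a gene if any of its windows matched, against 9.04% of 27025 genes and 7.86% of all 32851 windows. The cyclic AMP element was in Dusp1, Btg2 and Plk2, against 2.03% of genes and 1.79% of windows. AP-1 matched Zfp36l1 alone (8.97% of genes, 7.81% of windows), and the CArG box matched Dusp5 and Zfp36 (1.81% and 1.63%). A match describes the letters only, and elements outside the windows were not searched for. The start used for a window can differ from the gene coordinates given below, as for Nr4a1, whose window was chr15:101266596-101266895. The 4 windows printed here show each of these 2 elements in a pair of genes described below, and capitals mark the element. They are Hspb1 and Plk2, with the largest fold changes of the list, Btg2, and Hspa1a, which differs most between libraries of a region. Hspb1 is on the plus strand at chr5:135887669-135887968 with 2 matches, Hspa1a on the minus strand at chr17:34972107-34972406, Plk2 on the plus strand at chr13:110394794-110395093 and Btg2 on the minus strand at chr1:134079106-134079405.
Hspb1: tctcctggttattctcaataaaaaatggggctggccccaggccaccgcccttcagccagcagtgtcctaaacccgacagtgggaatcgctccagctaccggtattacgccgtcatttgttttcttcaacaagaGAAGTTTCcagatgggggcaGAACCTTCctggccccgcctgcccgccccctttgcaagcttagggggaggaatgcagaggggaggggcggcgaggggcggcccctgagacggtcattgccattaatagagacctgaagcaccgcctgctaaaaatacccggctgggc
Hspa1a: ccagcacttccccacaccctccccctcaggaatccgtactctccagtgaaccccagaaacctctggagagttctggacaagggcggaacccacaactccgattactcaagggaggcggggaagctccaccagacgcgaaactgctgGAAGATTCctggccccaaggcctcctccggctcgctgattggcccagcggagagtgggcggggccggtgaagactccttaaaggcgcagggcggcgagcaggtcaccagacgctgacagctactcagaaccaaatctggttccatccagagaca
Plk2: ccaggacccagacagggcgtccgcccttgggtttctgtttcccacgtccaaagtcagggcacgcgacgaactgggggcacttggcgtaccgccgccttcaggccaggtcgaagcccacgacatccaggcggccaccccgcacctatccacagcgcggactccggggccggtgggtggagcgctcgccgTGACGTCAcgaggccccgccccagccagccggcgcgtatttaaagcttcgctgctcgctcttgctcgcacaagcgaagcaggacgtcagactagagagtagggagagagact
Btg2: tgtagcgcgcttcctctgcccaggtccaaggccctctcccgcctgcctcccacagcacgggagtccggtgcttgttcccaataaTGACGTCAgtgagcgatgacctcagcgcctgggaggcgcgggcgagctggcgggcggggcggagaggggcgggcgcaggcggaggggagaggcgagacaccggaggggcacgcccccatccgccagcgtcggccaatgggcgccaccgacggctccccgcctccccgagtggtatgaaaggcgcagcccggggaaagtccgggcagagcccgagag

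The libraries held 1536 to 5098 cell barcodes and 26075303 to 66880457 UMIs, with a median of 12162.5 to 21127 UMIs per barcode. After filtering, 10243 cells remained in 21 clusters, made without the 37 genes and the related stress genes. Of these cells 5673 were goblet-like by their marker genes, 1111 in DC 1, 2325 in DC 2, 1101 in Si8 1 and 1136 in Si8 2. The goblet-like share was 49.2% to 73.8% of the kept cells of a library, and most other cells were cycling-like or unnamed. The median mitochondrial share of goblet-like cells was 5.48% and 5.24% in the DC libraries and 2.69% and 2.84% in the Si8 libraries. The 10 most abundant genes took 16.4% and 15.5% of all UMIs in DC and 30.7% and 30.4% in Si8. Markers of small intestinal absorptive cells summed to 110 and 129 CPM (UMIs per 1000000 UMIs of the same cells) in the goblet-like cells of DC and to 1817 and 2413 CPM in Si8. Paneth markers summed to 793 and 468 CPM in DC, where 8 and 6 of the 16 were at 0, and to 9383 and 9586 CPM in Si8. Immune markers summed to 0.54 to 5.70 CPM with 8 to 19 of 21 at 0, and stromal markers to 0.83 to 2.30 CPM with 9 to 11 of 14 at 0, Col3a1, Dcn and Lum among them in every library. The part of these differences in the values below was not tested, except where stated.

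In goblet-like cells 11 of the 37 genes were higher in DC, 4 were lower and 22 did not pass (edgeR quasi-likelihood test on UMI sums per library, Benjamini-Hochberg adjusted p under 0.05). Among all 11890 genes tested 43.3% passed, 21.1% higher and 22.2% lower, so the share of 40.5% among the 37 was near the background. The higher genes were Jun, Atf3, Nr4a1, Nr4a2, Klf2, Klf6, Zfp36l1, Btg2, Rasd1, Plk2 and Hspb1, and the lower ones Socs3, Gadd45a, Gadd45b and Cdkn1a. The median log2 fold change, DC minus Si8, was 0.36 over the 37 genes and 0.05 over all tested genes. Fold changes carry TMM factors of 1.21 and 1.19 in DC and 0.84 and 0.83 in Si8. With library totals alone, the median of all tested genes shifted to 0.57 and that of the 37 to 0.89. Then 25 of the 37 passed as higher and 3 as lower, while 7811 of all 11890 tested genes passed, 6544 of them as higher. Of all calls 83.8% were higher in DC, against 48.7% with TMM. Fold changes below are therefore relative to the typical gene. The goblet-like class was made up of different clusters in the 2 regions: cluster 6, described below, held 13.1% and 11.1% of its cells in DC and 28.9% and 21.5% in Si8. In CPM, 29 of the 37 genes were higher in both DC libraries than in either Si8 library, against 70% of all tested genes, and 4 were lower in both, against 15.4%.

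**Figure D1:**
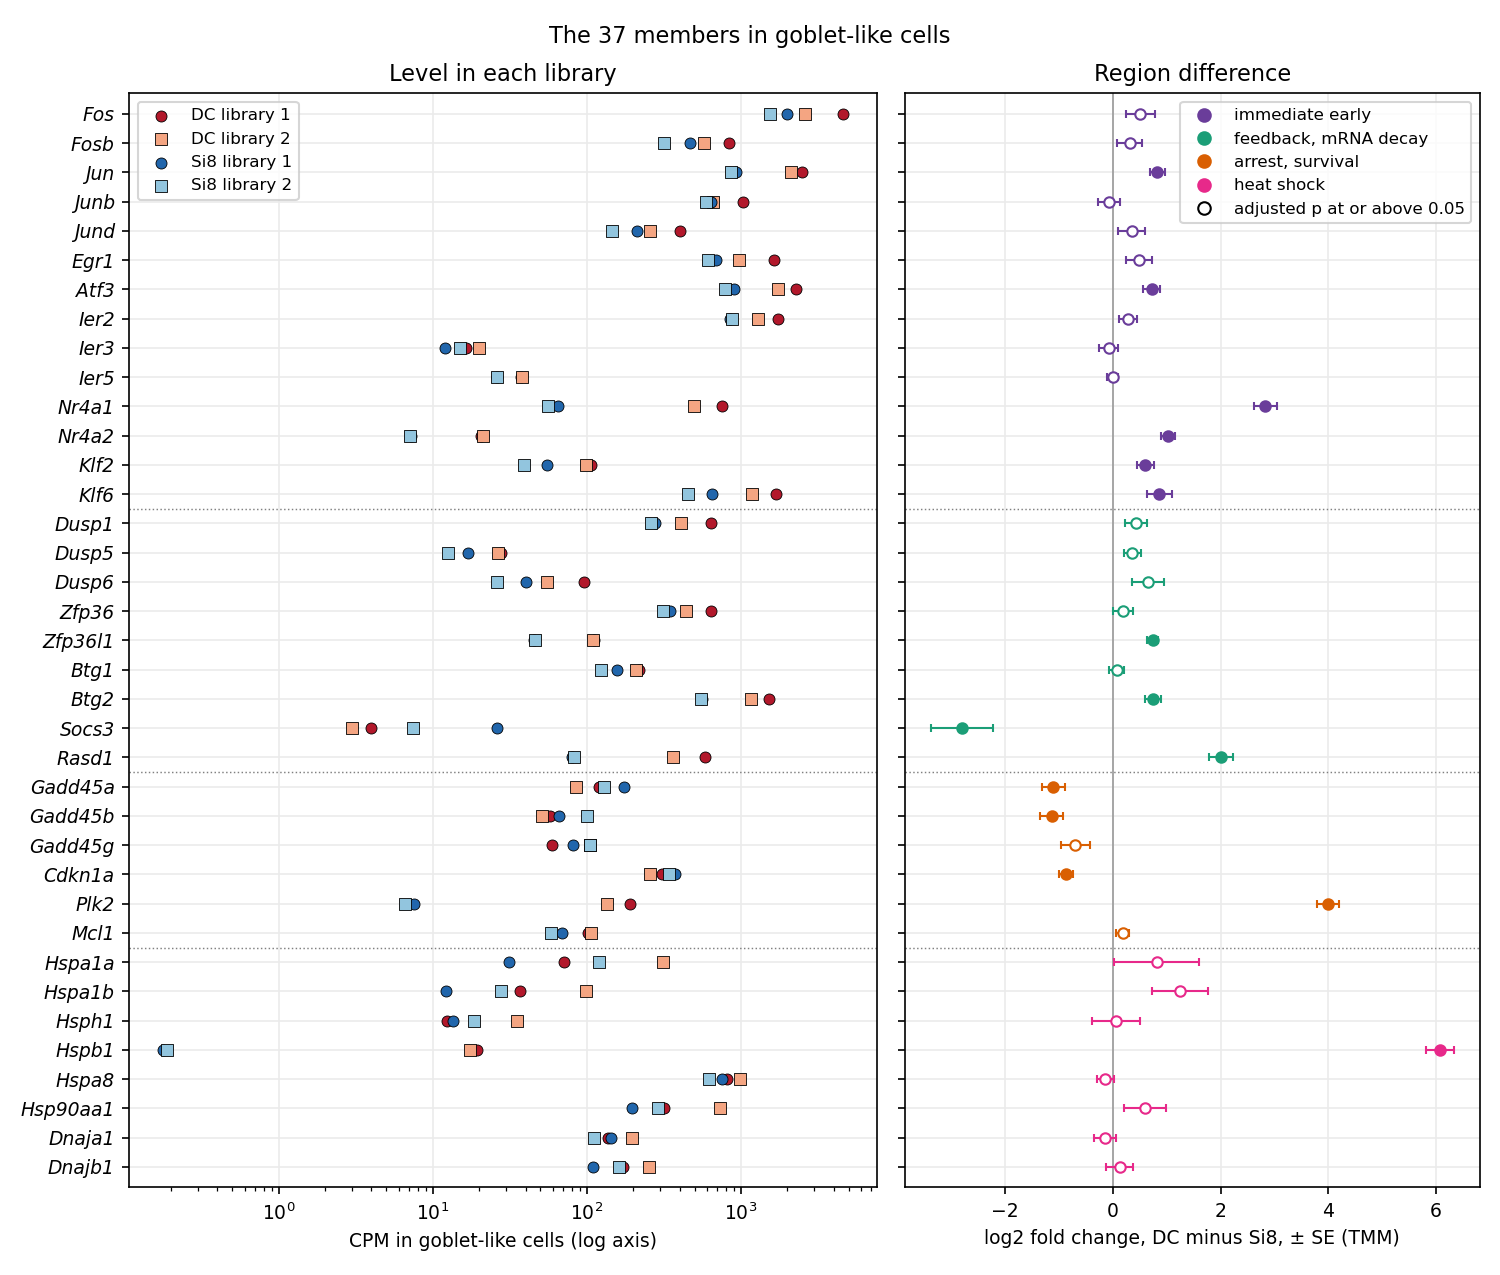
Levels of the 37 genes in goblet-like cells (left, CPM on a log axis, 1 symbol per library) and their log2 fold changes, DC minus Si8, with standard errors (right). Filled symbols passed the test at an adjusted p under 0.05, and dotted lines part the 4 groups of genes. Hspb1, Plk2, Nr4a1 and Rasd1 lie farthest to the right and Socs3 farthest to the left.

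Of the 14 immediate early transcription factors and response genes, 6 were higher in DC, none passed as lower and 8 did not pass. Among all tested genes 43.3% passed (21.1% higher, 22.2% lower), and of these 14 genes 42.9% did, near that share. Their CPM did not overlap between regions for any of the 14, all being higher in DC, as for 70% of all tested genes. Nr4a1, an orphan nuclear receptor induced by many stimuli (chromosome 15, 101254269 to 101274795), had 750 and 493 CPM in the DC libraries and 65.0 and 56.2 CPM in the Si8 libraries. Every DC value was thus several times above every Si8 value, and the 2 Si8 libraries lay close together. Its log2 fold change was 2.83 (SE 0.22, edgeR adjusted p = 0.000200), or 7.12-fold. Its relative Nr4a2 was far less abundant, with 20.7 and 21.2 CPM in DC against 7.25 and 7.06 in Si8. The difference was 1.02 on the log2 scale (SE 0.13, edgeR adjusted p = 0.00135).

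The AP-1 genes differed in whether they passed, and differences between these genes were not tested. Jun, the partner of Fos in AP-1, had 2474 and 2121 CPM in DC against 931 and 866 in Si8. It was higher in DC, at a log2 fold change of 0.83 (SE 0.13, edgeR adjusted p = 0.00335). Fos was the most abundant of the 37 genes, with 4602 and 2614 CPM in DC against 1982 and 1544 in Si8. The DC libraries differed from each other by more than DC 2 did from Si8 1, and its log2 fold change of 0.50 (SE 0.27) did not pass (edgeR adjusted p = 0.176). The call depended on the setting: it was made with library totals alone (1.03, edgeR adjusted p = 0.0165), with no filter on low counts (0.51, 0.00516), with the replicate number as a block (0.46, 0.00861) and without DC 2 (0.85, 0.0245), while without DC 1 the value was 0.05 (0.854). Where a library is left out, its region has 1 library, which is assumed to vary like the other region. Fosb, Junb and Jund had log2 fold changes of 0.31, -0.08 and 0.35 and did not pass, and the sign of Junb turned with library totals alone. Atf3, a stress-induced factor that can pair with Jun, had 2270 and 1733 CPM in DC against 902 and 786 in Si8. It was higher in DC, at 0.72 (SE 0.16, edgeR adjusted p = 0.0129), but without DC 1 the adjusted p was 0.0573 at a log2 fold change of 0.52.

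Egr1, a zinc finger factor with a serum response, had 1647 and 965 CPM in DC against 685 and 610 in Si8. It had a log2 fold change of 0.48 (SE 0.24) and did not pass (edgeR adjusted p = 0.150), although the regions did not overlap. As with Fos, it passed with library totals alone (1.01, edgeR adjusted p = 0.0117), no filter (0.49, 0.00624), the block (0.44, 0.0202) and without DC 2 (0.81, 0.0128), and was 0.06 without DC 1 (0.780). Ier2, a short-lived nuclear protein, had 1742 and 1283 CPM in DC against 844 and 881 in Si8. Its log2 fold change was 0.28 (SE 0.16, edgeR adjusted p = 0.211), and 0.81 with library totals alone, which passed (edgeR adjusted p = 0.00608). The Krüppel-like factor Klf6 had 1692 and 1176 CPM in DC against 645 and 450 in Si8. It was higher in DC, at 0.86 (SE 0.23, edgeR adjusted p = 0.0230). Klf2, of the same family, had 107 and 98.9 CPM in DC against 54.7 and 39.4 in Si8, at 0.60 (SE 0.16, edgeR adjusted p = 0.0254). Neither call held whenever a library was left out. For Klf2 the value was 0.56 without DC 1, 0.65 without DC 2 and 0.39 without Si8 2 (edgeR adjusted p = 0.113, 0.0678 and 0.0961). For Klf6 it was 0.59 without DC 1 and 0.64 without Si8 2 (edgeR adjusted p = 0.118 and 0.0594), and 0.79 with every cell thinned to 2000 UMIs (0.0670). Ier3 and Ier5 were low, at 11.9 to 38.1 CPM, with log2 fold changes of -0.08 and 0.00, and Ier3 was above 0 with library totals alone.

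Among the 9 genes of feedback and mRNA decay 3 were higher in DC, 1 was lower and 5 did not pass. The share that passed, 44.4%, was near the 43.3% of all tested genes. Rasd1, a Ras-like protein induced by glucocorticoids, had 587 and 361 CPM in DC against 80.6 and 83.0 in Si8. Both DC libraries were more than 4 times as high as either Si8 library, and the log2 fold change was 2.01 (SE 0.23, edgeR adjusted p = 0.000862). Btg2, an antiproliferative factor that recruits the deadenylase, had 1521 and 1168 CPM in DC against 559 and 552 in Si8. Its promoter window, printed above, holds 1 cyclic AMP element. The log2 fold change was 0.75 (SE 0.15, edgeR adjusted p = 0.00823). Zfp36l1, which binds AU-rich elements and promotes mRNA decay, had 111 and 109 CPM in DC against 45.3 and 46.2 in Si8. The libraries of each region hardly differed, and the log2 fold change was 0.74 (SE 0.10, edgeR adjusted p = 0.00197).

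Socs3, the feedback inhibitor of JAK-STAT signalling, went the other way. It had 3.98 and 3.01 CPM in DC against 26.1 and 7.49 in Si8. All values were low, and the Si8 libraries differed from each other by more than Si8 2 did from DC. The log2 fold change was -2.80 (SE 0.58, edgeR adjusted p = 0.00905), and the call was lost without DC 1 (-2.98, adjusted p = 0.0516) or DC 2 (-2.59, 0.0611). Its size rested on the Si8 libraries, at -1.66 without Si8 1 and -3.45 without Si8 2 (edgeR adjusted p = 0.000679 and 1.03e-07). The phosphatases that switch off MAP kinases, Dusp1, Dusp5 and Dusp6, had log2 fold changes of 0.43, 0.36 and 0.66 and did not pass, nor did Zfp36 at 0.19 and Btg1 at 0.07. Each of these 5 genes was nonetheless higher in both DC libraries than in either Si8 library in CPM, as were 70% of all tested genes.

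The 6 genes of growth arrest and survival did not move as a group: 1 was higher in DC, 3 were lower and 2 did not pass. That is 66.7% of a small group, beside 43.3% of all tested genes. Plk2, a kinase induced by serum and by p53 (chromosome 13, 110395046 to 110400844), had 191 and 135 CPM in DC against 7.54 and 6.64 in Si8. The regions stood far apart, at a log2 fold change of 3.99 (SE 0.20, edgeR adjusted p = 5.64e-05), or 15.9-fold. Its window holds 1 cyclic AMP element. Cdkn1a, the p21 inhibitor of cyclin-dependent kinases and also a p53 target, had 307 and 256 CPM in DC against 371 and 341 in Si8. In CPM the 4 libraries were within a narrow range, and the log2 fold change of -0.86 (SE 0.13, edgeR adjusted p = 0.00269) depended on the scaling. With library totals alone it was -0.34 and did not pass (adjusted p = 0.0601). Gadd45a, a DNA damage response gene, had 120 and 84.5 CPM in DC against 174 and 130 in Si8, at -1.10 (SE 0.21, edgeR adjusted p = 0.00606). Gadd45b had 57.9 and 51.1 CPM in DC against 65.8 and 100 in Si8, at -1.14 (SE 0.21, edgeR adjusted p = 0.00555). Both were lower in DC also with library totals alone, while Gadd45a did not pass after thinning (-0.84, adjusted p = 0.0578). In cluster 6, where both Cdkn1a and Gadd45a are high, neither passed and their CPM was higher in DC, for Cdkn1a 963 and 878 against 541 and 479 and for Gadd45a 405 and 327 against 255 and 214. Gadd45a passed as lower in 2 of 8 clusters. Gadd45g (-0.70) and the survival factor Mcl1 (0.19) did not pass.

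Of the 8 heat shock genes only Hspb1 passed, and 7 did not (12.5% passed, beside 43.3% of all tested genes). Hspb1, a small chaperone (chromosome 5, 135887919 to 135889563), had 19.4 and 17.4 CPM in DC against 0.18 and 0.19 in Si8. Those values rest on 680 UMIs in DC and 7 in Si8, a CPM ratio of 98.3 with an exact 95% counting interval of 47.4 to 245. That interval pools the UMIs of both libraries of a region, so it leaves out the spread between libraries, and the ratio carries no TMM scaling. The fitted log2 fold change, with TMM, was 6.07 (SE 0.25, edgeR adjusted p = 2.85e-05), or 67.2-fold. Its window is the one printed above with 2 heat shock elements. Hspa8, the constitutive Hsc70 and the most abundant chaperone of the list, had 815 and 983 CPM in DC against 758 and 624 in Si8. The log2 fold change was -0.14 (SE 0.16, edgeR adjusted p = 0.493), and with library totals alone it was 0.38.

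The inducible chaperones varied widely between libraries of a region. Hspa1a and Hspa1b, neighbouring copies of inducible Hsp70 on chromosome 17, had 71.6 and 311 CPM, and 37.1 and 98.9 CPM, in DC. In Si8 they had 31.3 and 121 CPM, and 12.2 and 27.8 CPM. In each gene library 2 was above library 1 in both regions, and DC was above Si8 for libraries of the same number. The copies are near identical, so reads may be split between them and each value is uncertain. Their log2 fold changes were 0.81 (SE 0.78) and 1.24 (SE 0.52), and neither passed (edgeR adjusted p = 0.440 and 0.0995). Hsp90aa1, the inducible Hsp90, had 318 and 736 CPM in DC against 196 and 290 in Si8. The difference of 0.59 (SE 0.39) did not pass either (edgeR adjusted p = 0.262). The co-chaperones Hsph1, Dnaja1 and Dnajb1 had log2 fold changes of 0.06, -0.14 and 0.13 and did not pass, and Dnaja1 was above 0 with library totals alone.

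Over all kept cells, 9 of the 37 genes were higher in DC and 2 were lower, against 24.7% of 13086 genes tested (12.9% higher, 11.9% lower). Jun, Atf3, Nr4a1, Nr4a2, Zfp36l1, Btg2, Rasd1, Plk2 and Hspb1 were higher, Cdkn1a and Gadd45b lower. Klf2, Klf6, Socs3 and Gadd45a had log2 fold changes of 0.92, 0.99, -1.22 and -0.98 and did not pass there. These counts changed when single libraries were left out, as given at the end. With library totals alone 22 of the 37 were higher and 0 lower, while 5141 of all 13086 tested genes passed, 4142 of them as higher. Of all calls 80.6% were then higher in DC, against 52.0% with TMM.

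Summed over the 37 genes, the goblet-like cells of DC 1 and DC 2 had 23900 and 18200 CPM and those of Si8 1 and Si8 2 had 11060 and 9859 CPM. The genes thus made up 2.39%, 1.82%, 1.11% and 0.986% of all UMIs, and both DC libraries were above both Si8 libraries. The mean was 21050 ± 4031 CPM in DC and 10460 ± 849 in Si8 (SD, n = 2 each), a ratio of 2.01. An exact two-sided permutation test of 2 against 2 libraries gave p = 0.333, the smallest it can give. With TMM-scaled CPM the ratio was 1.40. With cells of at most 10% mitochondrial UMIs it was again 2.01, and without Fos, Jun and Atf3, the 3 genes with most UMIs, it was 1.89. The sum is dominated by a few genes: Fos alone made up 14.4% to 19.3% and the 8 largest 65.5% to 71.1% of it in each library.

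By group, the ratio of DC to Si8 in CPM was 2.15 for immediate early genes, 2.23 for feedback and mRNA decay genes and 1.61 for heat shock genes, with no overlap between regions in CPM. It was 1.04 for growth arrest and survival genes, whose libraries overlapped (838 and 737 CPM in DC, 767 and 741 in Si8). With TMM-scaled CPM the ratios of the first 2 groups were 1.49 and 1.54, again without overlap, but that of heat shock genes was 1.12 with overlap (1309 and 2210 in DC, 1509 and 1636 in Si8). The ratio of growth arrest and survival genes was then 0.724 without overlap (692 and 618 in DC, 916 and 894 in Si8). Within that group Plk2 was higher in DC and Cdkn1a lower.

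Per cell, after every cell had been thinned to 2000 UMIs, the median goblet-like cell held 47 and 35 UMIs of the 37 genes in the DC libraries and 22 and 19 in the Si8 libraries. Cells overlapped broadly: the 10th to 90th percentile ran from 23 to 71 and 19 to 57 UMIs in DC, and from 10 to 34 and 9 to 30 in Si8. The 10th percentile was above 0 in every library. All kept cells had at least 2000 UMIs, so none was left out. Thinning to 5000 UMIs gave a ratio of medians of 2.02, against 2.00 at 2000.

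**Figure D2:**
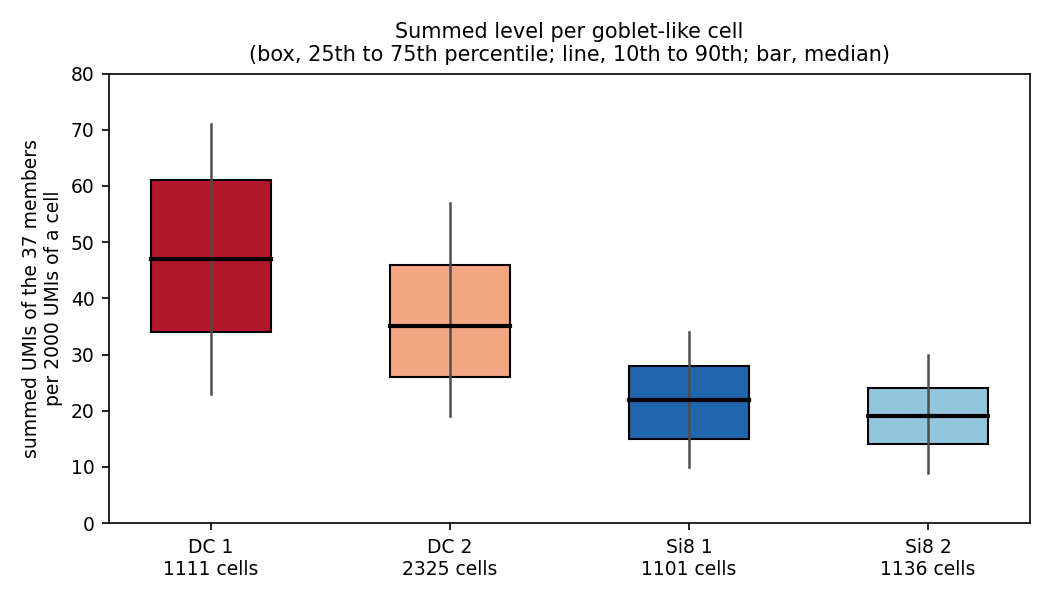
Summed UMIs of the 37 genes per goblet-like cell after thinning to 2000 UMIs, by library (bar, median; box, 25th to 75th percentile; line, 10th to 90th). Medians were 47 and 35 UMIs in DC 1 and DC 2 and 22 and 19 in Si8 1 and Si8 2, and the boxes of each DC library lie above the Si8 medians.

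For 20 of the 37 genes library 2 was below library 1 in both regions, for 8 it was above in both, and for 9 the regions differed. In both regions 10 of the 14 immediate early genes and 7 of the 9 feedback genes were lower in library 2 than in library 1. Of the 8 heat shock genes none was lower in library 2 of both regions, and 5 were higher, namely Hspa1a, Hspa1b, Hsph1, Hsp90aa1 and Dnajb1. Of all 11890 tested genes 31.1% were lower and 28.6% higher in library 2 of both regions. For Hspa1a library 2 was 4.35 times library 1 in DC and 3.86 times in Si8. Fos went the other way, at 0.57 and 0.78. The labels do not say what a replicate number stands for, and with 2 libraries per region this was not tested.

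**Figure D3:**
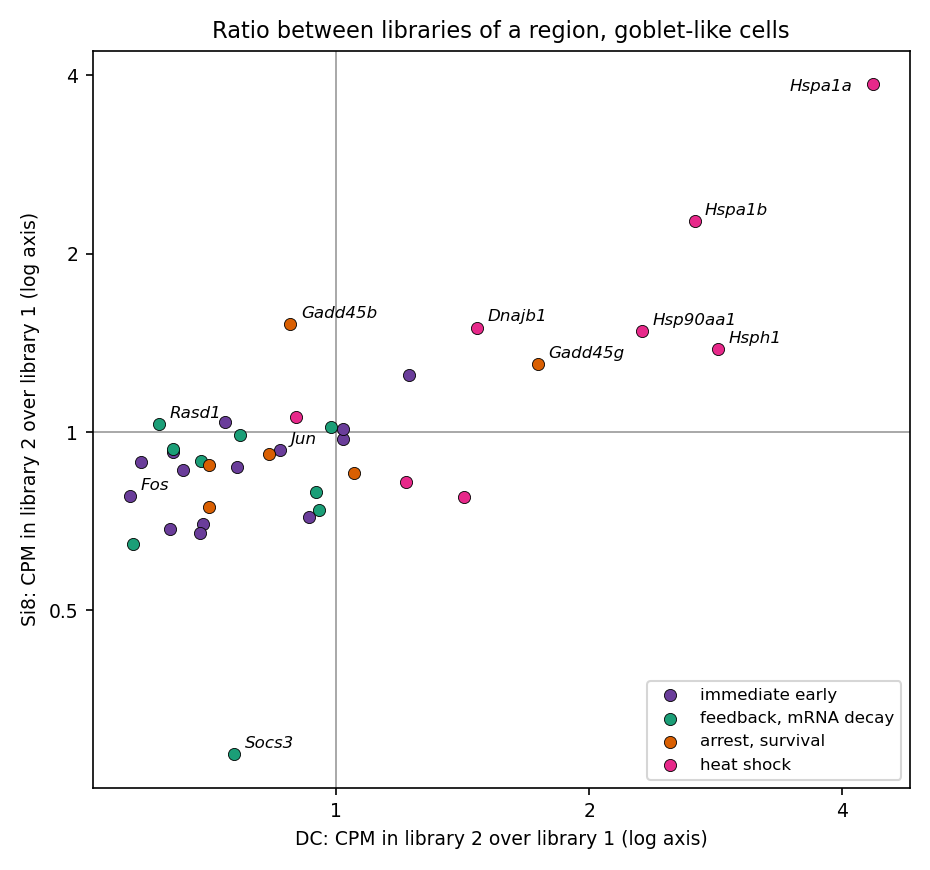
CPM in library 2 divided by CPM in library 1, for each gene in goblet-like cells, in DC (horizontal, log axis) and Si8 (vertical, log axis). Heat shock genes reach the upper right, with Hspa1a at 4.35 and 3.86, while most immediate early and feedback genes lie at lower left.

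Which cell states carried the genes was read from the 8 clusters with at least 20 cells in every library, as a description with no test. Clusters 1 (led by Mptx1, Ccl6 and Sval1), 2 (Zg16, Sval1 and Ffar4), 4 (Ccl9, Pdia5 and Fkbp11) and 6 (2010109I03Rik, Saa1 and Ido1) were goblet-like. Clusters 5, 7 and 8 were cycling-like, and cluster 3 (Gsdmc4, Mgat4c and Gsdmc2) had no class name. Fabp6 was also among the leading genes of cluster 3, and its best and next class tied at 5 markers each. Cells of cluster 6 had 0.51 of the median depth of their library. The sum of all 37 genes differed at most 1.49- to 1.61-fold between the highest and the lowest of these clusters within a library. In CPM the lowest DC value among these 8 clusters (14040 in cluster 8 of DC 2) was above the highest Si8 value (12490 in cluster 4 of Si8 1). With TMM-scaled CPM that order was reversed (13380 and 14150), and cluster 4 overlapped between regions, with 14020 in DC 2 and 14150 in Si8 1, while the other 7 did not. How much free RNA in droplets adds to these sums was not tested. In the Paneth-like cluster 12, the 12 and 42 cells of Si8 had 1657 and 1719 CPM, and the 13 of DC 2 had 17930 CPM. Only Si8 2 had at least 20 cells there, and the DC 2 value was near that of the goblet-like cells of DC 2. Whether the DC 2 cells are of the same kind as those of Si8 was not tested, so this is no comparison of regions.

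The groups were spread differently. Growth arrest and survival genes were 4.49 to 5.39 times as high in the highest as in the lowest cluster, with clusters 6 and 2 at the top and a cycling-like cluster at the bottom in all 4 libraries. Cdkn1a led this, with 963 and 878 CPM in cluster 6 of DC and 541 and 479 in Si8, against 56.7, 66.0, 84.7 and 72.6 CPM in cluster 5. Gadd45a was lowest in cluster 5 in every library. The heat shock sum, in which Hspa8 and Hsp90aa1 weigh most, had clusters 5 and 7 as the top pair and cluster 6 as the lowest in all 4 libraries. Single genes departed from this: 3 of the 8 were lowest in cluster 6 in every library, and Hspa1b was highest there in DC 1. The range was 1.85-fold in both DC libraries but 5.98- and 5.26-fold in Si8. Hspa8 was highest in cluster 5 (1410, 1480, 1710 and 1530 CPM in DC 1, DC 2, Si8 1 and Si8 2) and lowest in cluster 6 (560, 723, 324 and 319 CPM). Hsph1 and Dnaja1 were also lowest in cluster 6 in every library, and so were Nr4a1 and Nr4a2. Immediate early sums ranged 1.62- to 1.73-fold. The highest was cluster 2 in DC 1, cluster 6 in DC 2, cluster 4 in Si8 1 and cluster 1 in Si8 2. In DC 1 cluster 6 came after clusters 2, 1, 3 and 4. Socs3 was highest in cluster 3 in all 4 libraries, at 63.5 and 10.6 CPM in DC against 48.6 and 12.7 in Si8. Of the 37 genes 34 had no cluster that was highest in all 4 libraries.

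**Figure D4:**
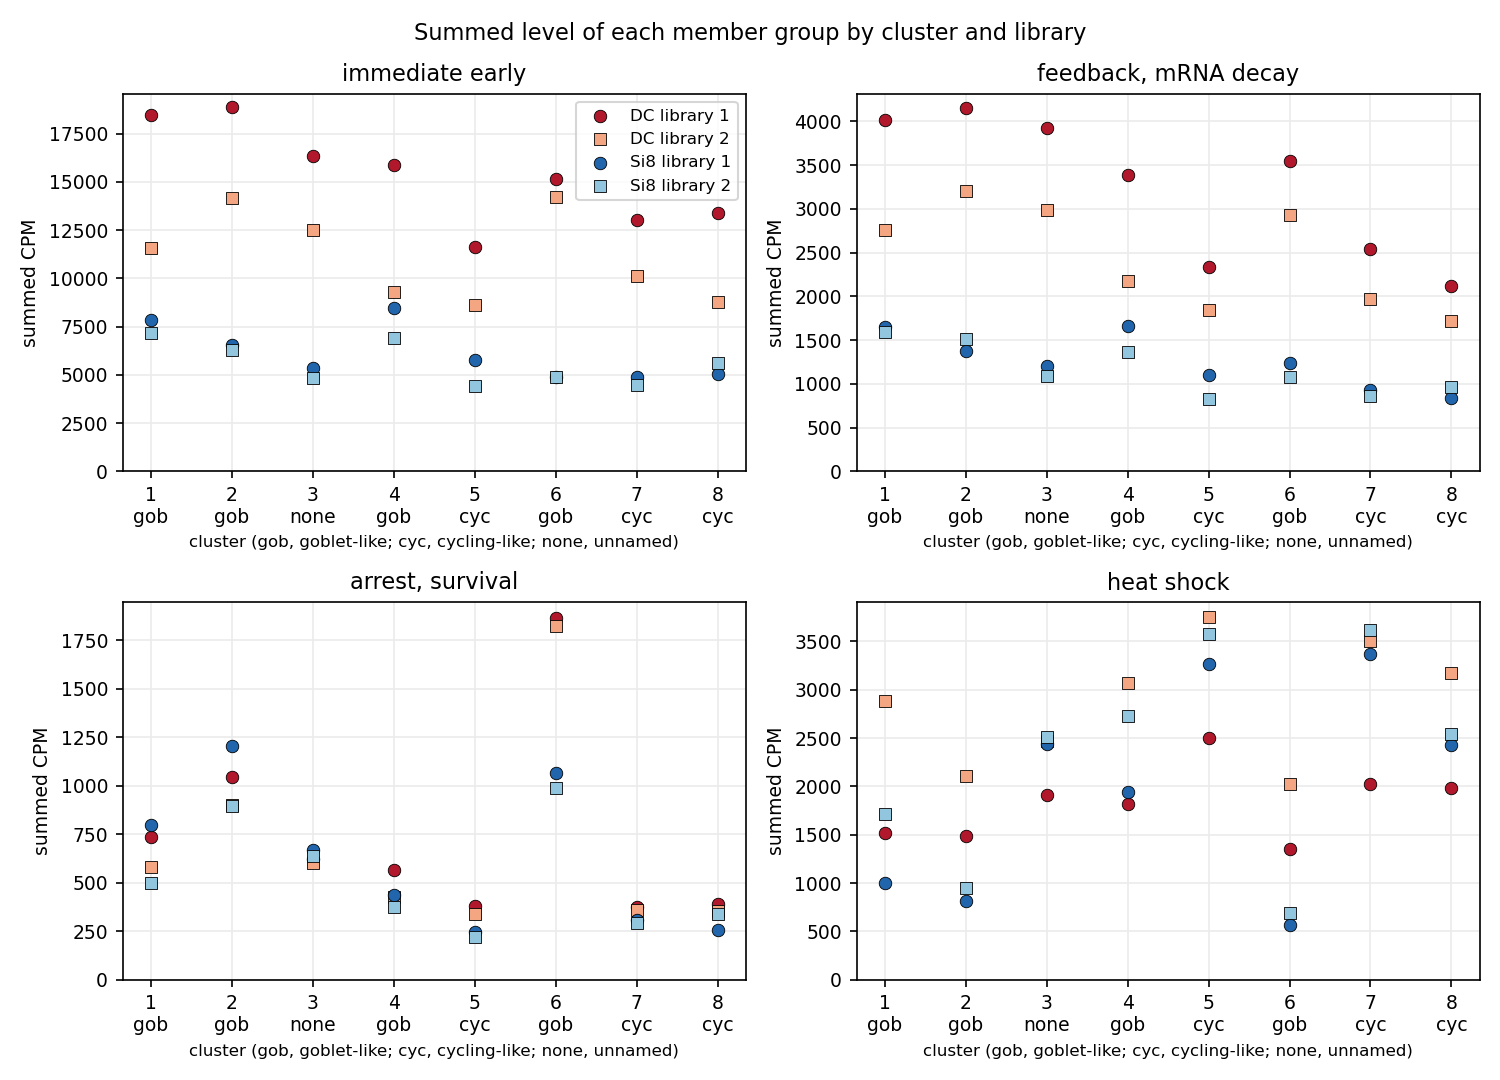
Summed CPM of each of the 4 gene groups in the 8 clusters with at least 20 cells in every library, 1 symbol per library (gob, goblet-like; cyc, cycling-like; none, no class name). Arrest and survival genes peak in clusters 2 and 6, heat shock genes in clusters 5 and 7, and the immediate early sum in CPM is higher in both DC libraries in each of the 8 clusters. With TMM-scaled CPM it overlaps between regions in cluster 4.

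Tested cluster by cluster, Nr4a1, Rasd1 and Plk2 were higher in DC in all 8 clusters, with log2 fold changes of 2.63 to 3.92, 1.89 to 3.12 and 2.49 to 5.38. Hspb1 was higher in each of the 6 clusters in which it could be tested. With 7 and 9 UMIs in all kept cells of Si8 1 and Si8 2, it could pass the count filter only through its DC libraries. Its direction in those clusters was thus set by the filter and adds no support. Jun and Zfp36l1 were higher in 7 of 8 clusters. Cdkn1a was lower in 6 of 8 and Socs3 in 4 of 7. No other gene of the list passed as lower in more than 3 clusters. Background shares of all tested genes differed from cluster to cluster. In the goblet-like clusters, 8 genes were higher and 3 lower in cluster 1 (28.5% of all genes passed, 13.7% higher and 14.8% lower), 12 and 5 in cluster 2 (37.2%, 17.3% and 19.9%) and 7 and 3 in cluster 4 (23%, 11.5% and 11.5%). In cluster 6 it was 6 and 1 of 36 tested (9.65%, 5.13% and 4.52%). In the cycling-like clusters it was 17 and 1 of 36 in cluster 5 (21.8%, 12.8% and 8.95%), 21 and 4 in cluster 7 (27.9%, 15.1% and 12.8%) and 14 and 1 of 35 in cluster 8 (17.6%, 8.41% and 9.22%). Hspa1b passed in cluster 6, at 2.86 (SE 0.44, edgeR adjusted p = 0.00420), with 85.5 and 109 CPM in DC against 5.76 and 11.8 in Si8.

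In cycling-like cells 18 of the 37 genes were higher in DC and 2 lower, where 25.8% of all tested genes passed (14.4% higher, 11.4% lower). Among them were 10 of the 14 immediate early genes, with Fos at 1.12 (SE 0.26, edgeR adjusted p = 0.0161), from 3376 and 2018 CPM in DC against 1335 and 982 in Si8. In cluster 3 the counts were 22 and 5, against 36.3% of all genes (18.4% higher, 17.9% lower), with Fos at 1.33 (SE 0.23, edgeR adjusted p = 0.000709). Hsph1, a large chaperone that releases nucleotide from Hsp70, was lower in DC in both, at -1.25 and -1.86. Whether cluster 3 holds the same kind of cell in DC and in Si8 was not tested, so its values may compare unlike cells.

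Whether the region effect itself differed between classes was tested as an interaction in edgeR with library as a block. For cycling-like against goblet-like cells 26 of the 37 genes passed, 21 with a positive and 5 with a negative interaction, against 26.6% of 12585 genes (16% and 10.6%). Positive means that the signed DC minus Si8 value was higher in cycling-like cells, not that the regions lay farther apart: Socs3 was positive, from -2.80 to -0.79, and Hsph1 negative, from 0.06 to -1.25. For cluster 3 against goblet-like cells it was 26 as well, 20 positive and 6 negative, against 19.1% of 12122 genes (10.4% and 8.72%). These splits depended on the scaling. With library totals alone, chosen as an alternative after the data were seen, the counts were 10 positive and 11 negative in cycling-like cells, against 5.38% and 35.4% of all tested genes. In cluster 3 they were 13 and 10, against 5.88% and 21.6%. Over all tested genes the median difference shifted from 0.05 to -0.39 in the first and from 0.02 to -0.27 in the second. Under both scalings 15 genes passed in the same direction for cycling-like cells, 10 positive and 5 negative, where 5.38% and 10.6% of all tested genes did so. The 5 negative ones were Hspa1a, Hspa1b, Hsph1, Hsp90aa1 and Dnaja1, all heat shock genes, and the 10 positive ones Atf3, Dusp1, Dusp6, Fosb, Gadd45a, Gadd45b, Gadd45g, Klf2, Rasd1 and Socs3. In cluster 3 the same 5 heat shock genes and Ier5 were negative under both, and 13 genes were positive, where 8.72% and 5.88% of all tested genes were. Among the 13 were Fos, Fosb, Junb, Atf3, Nr4a1 and Plk2.

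**Figure D5:**
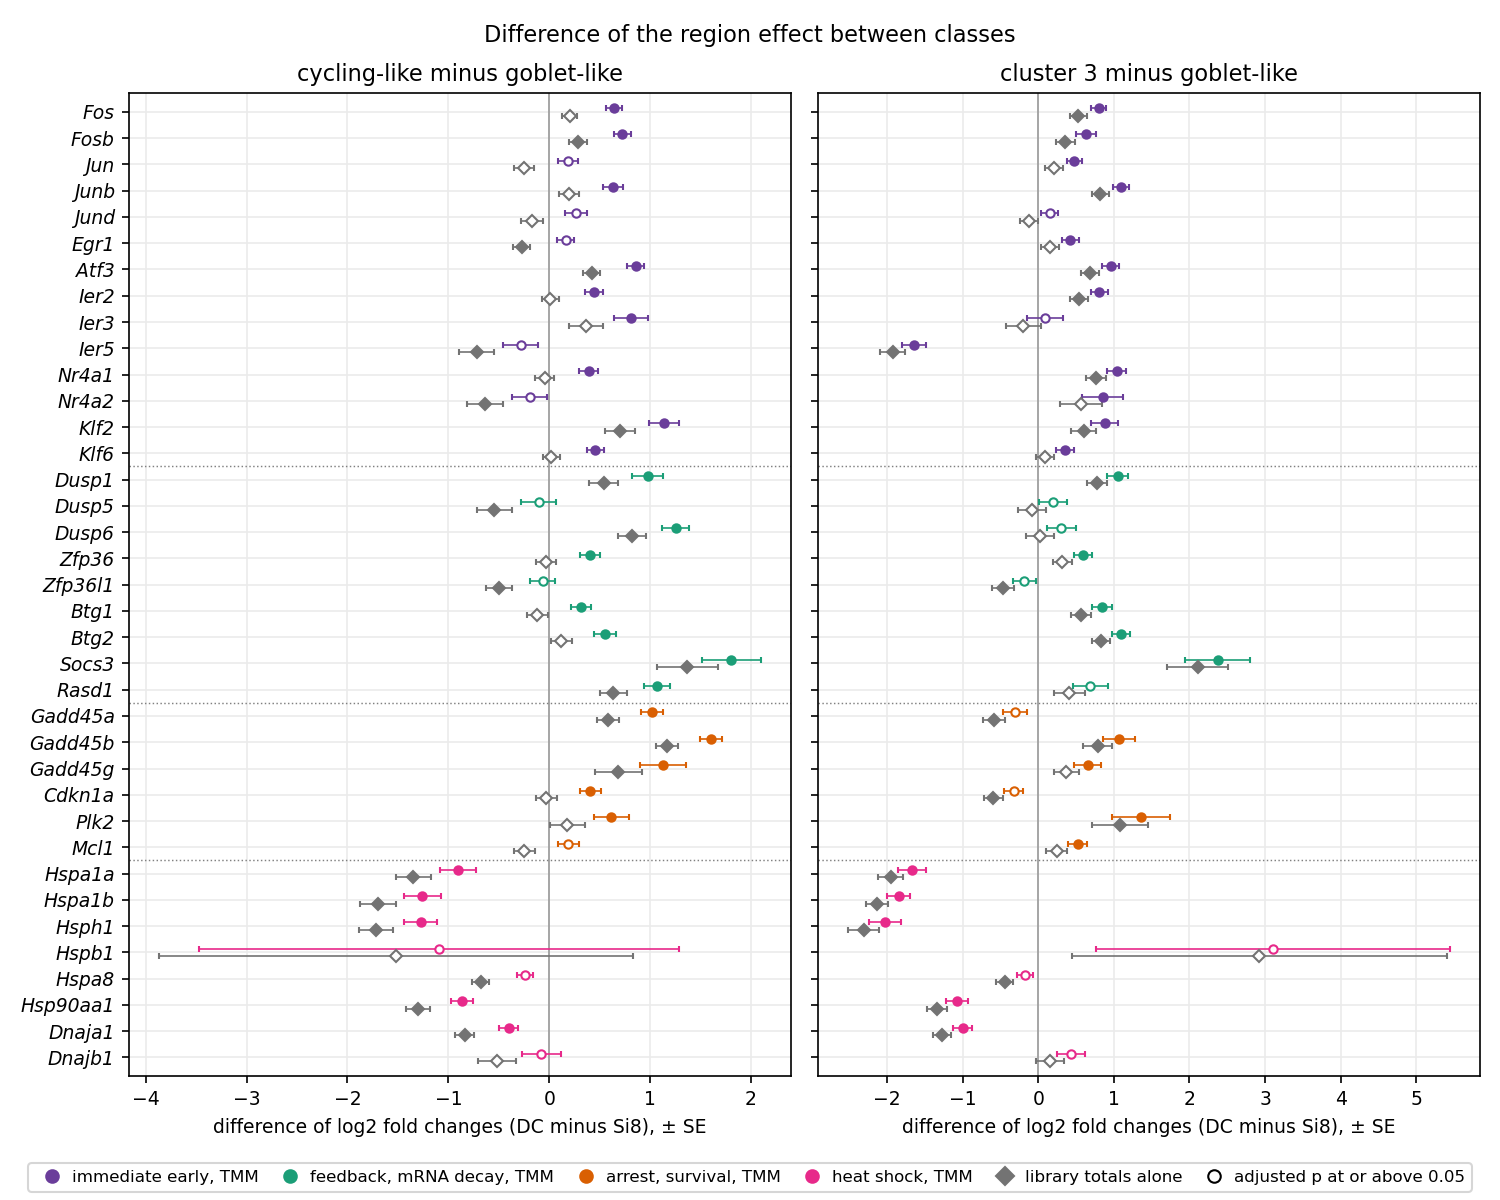
Difference between classes of the log2 fold change DC minus Si8, with standard errors, for cycling-like (left) and cluster 3 cells (right) against goblet-like cells. Colored circles use TMM scaling, grey diamonds library totals alone, and filled symbols passed at an adjusted p under 0.05. Hspa1a, Hspa1b, Hsph1, Hsp90aa1 and Dnaja1 lie below 0 under both scalings in both panels.

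Across single goblet-like cells most pairs of the genes varied together only weakly, which is given as a description. The Pearson correlation of log thinned counts, within a library, had a median over pairs of 0.04 among the 23 genes with a UMI in at least 10% of cells. Pairs of cells share a library and sparse counts, so small values are no finding. The highest pair was Fos with Atf3, at 0.49, 0.44, 0.35 and 0.28 in DC 1, DC 2, Si8 1 and Si8 2 (mean 0.39). Pairs of immediate early genes had medians of 0.26, 0.21, 0.16 and 0.14, pairs of heat shock genes 0.09, 0.12, 0.09 and 0.16. Pairs across the 2 groups had 0.02, -0.02, 0.04 and 0.04. These group medians used the genes that reached 10% of cells in each single library, drawn from 28, 30, 24 and 24 of the 37. The pairs therefore differ between libraries, and the medians are not over the same genes. Sums over a group went together more closely for immediate early and feedback genes, at 0.58, 0.48, 0.42 and 0.32. The immediate early sum correlated with the growth arrest and survival sum at 0.19, 0.28, 0.00 and 0.03. With the heat shock sum it correlated at -0.02, -0.09, 0.20 and 0.24. The sum of the 37 genes correlated with the mitochondrial share of a cell at -0.01, 0.02, -0.01 and 0.07. Within clusters the values ran from -0.19 (cluster 1, DC 2) to 0.21 (cluster 6, Si8 2). With log UMIs it correlated at 0.04, -0.03, 0.00 and 0.15, but at -0.51 within cluster 6 of Si8 1.

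Among 1432 other genes with a UMI in at least 10% of thinned goblet-like cells of every library, those that followed the summed level most closely included Actg1, Hspa5, Cyr61, Thbs1, Hbegf, Herpud1, Nfkbia, Trib1 and Txnip. Actg1, a cytoplasmic actin, had a mean r of 0.41 over the 4 libraries and Hspa5, the chaperone BiP of the endoplasmic reticulum, one of 0.39, with 0.38 to 0.41 in the single libraries. Cyr61 and Trib1 (0.29 and 0.23) belong to the list of other immediate early genes and Hbegf (0.27) to the EGF receptor ligands. At the other end, Crip1, S100a6 and Muc2, the main mucin, had means of -0.20, -0.14 and -0.14. For Muc2 the values were near 0 in DC (-0.041 and 0.003) and negative in Si8 (-0.223 and -0.305). S100a6 had -0.112 and 0.076 in DC against -0.240 and -0.299 in Si8, while Crip1 was negative in every library.

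Related genes outside the 37 were read from lists of each pathway in goblet-like cells, where 43.3% of all tested genes passed. Of other immediate early genes 17 of 37 tested were higher in DC, 6 were lower and 14 did not pass, with a median log2 fold change of 0.49. Arc, an activity-induced gene best known from neurons, had 72.2 and 23.6 CPM in DC against 1.49 and 0.94 in Si8, at 4.78 (SE 0.64, edgeR adjusted p = 0.00164). Sgk1, a kinase induced by serum and steroids, had 139 and 63.5 CPM in DC against 10.1 and 8.10 in Si8, at 2.95 (SE 0.37, edgeR adjusted p = 0.00133). Jdp2, which represses AP-1, was at 0 and 1 UMI in DC and 23 and 12 UMIs in Si8, and was lower in DC (edgeR adjusted p = 0.00489). The inhibitors Id1, Id2 and Id3 were also lower.

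Other cytosolic heat shock genes gave 5 higher and 5 lower of 33 tested, with a median of -0.05, near that of all genes. Hspa2, Dnaja4 and Dnajb4 were the largest changes among those that passed, higher by 1.36, 1.35 and 1.23. Hspa2 rests on 19 and 32 UMIs in DC and 6 and 8 in Si8. Mitochondrial chaperones gave 2 higher, Hspa9 at 1.02 and Trap1 at 0.85, and none lower of 9. NF-kB feedback genes gave 5 higher and 7 lower of 21. The neutrophil chemokines Cxcl1 and Cxcl2 were higher by 2.78 and 3.34 (edgeR adjusted p = 0.000980 and 0.00253), Cxcl1 from 33.6 and 44.6 CPM in DC against 5.52 and 2.59 in Si8. Tnfaip2 was lower, on 3 and 0 UMIs in DC and 18 and 29 in Si8.

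EGF family and MAP kinase relay genes gave 6 higher and 7 lower of 23. The Ras-MAPK inhibitors Spry2 and Spry4 were higher, Spry2 at 65.7 and 38.5 CPM in DC against 12.1 and 11.4 in Si8. Spry4 rests on 20 and 36 UMIs in DC and 4 and 4 in Si8. Map2k2, a kinase of the relay, was lower at -1.17. Targets of p53 gave 5 higher and 4 lower of 18. Trp53inp1 had 234 and 165 CPM in DC against 17.6 and 10.9 in Si8, at 3.28 (SE 0.27, edgeR adjusted p = 0.000251), and the death receptor gene Tnfrsf10b was higher by 3.79 (SE 0.22, edgeR adjusted p = 7.87e-05). Phlda3 was higher by 1.63, on 18 and 30 UMIs in DC and 3 and 8 in Si8. Plk2 and Cdkn1a, both known p53 targets, differed in opposite directions. Integrated stress and redox genes gave 3 higher and 6 lower of 16, with a median of -0.45. The lower ones included Trib3, Chac1 and Asns, which are known targets of Atf4. Asns, asparagine synthetase, had 26.8 and 33.8 CPM in DC against 105 and 75.2 in Si8, at -2.09 (SE 0.20, edgeR adjusted p = 0.000443). Chac1 had 4.37 and 3.54 CPM in DC, and its Si8 libraries lay far apart, at 73.3 and 11.2 CPM.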

How the data were processed

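The authors deposited counts: for each of 4 libraries, the raw number of UMIs of a gene in a barcode. Cell Ranger 2.1.1 and the mm10 build are named in the submitters' processing notes. The kit was 10x 3' v2, per the labels' protocols, and no normalization had been applied. No source used here names the annotation, so coordinates come from GENCODE (GRCm38) by Ensembl identifier. A barcode needed 500 genes or more and no more than 20% mitochondrial UMIs, which 10522 of 10827 met. The doublet caller of scanpy 1.11.5 marked only 18 barcodes (0.166%), so the highest scores were removed up to 0.8% per 1000 cells, 279 cells. Of the barcode sequences 45 occurred in more than 1 library. Cells were clustered on 2000 variable genes without 205 stress genes, the 37 genes included (30 components, 5 cosine neighbours per library, Leiden resolution 1.0, clusters under 300 cells clustered again). For a class name, 3 or more of its markers had to be in a cluster's top 50 genes, more than of any other class. No other class could lead the first 10.

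UMIs were summed per class and library and tested with edgeR 4.0.16 (quasi-likelihood, TMM, filterByExpr at a minimum of 10 counts, Benjamini-Hochberg adjustment over all tested genes at 0.05). The library is the replicate. On simulated data for the goblet-like comparison (11890 genes) the test recovered 81.1% of 2-fold and 100% of 4-fold changes with 9 false calls. There every gene had the same spread between libraries (a dispersion of 0.0182), and only 95 and 98 genes were changed. In the real data the spread differed between genes and 43.3% of genes passed. The simulated rates therefore do not give the power or the false calls for these data. Alternatives were DESeq2 1.42.0, other scaling, filters, clustering, thinning, and leaving out each library. The 37 genes and the other lists were chosen with earlier results of these data known. Full values are given for genes of the 37 that passed in goblet-like cells and for the 8 with the highest mean CPM, and in each pathway list for up to 3 genes with the largest change among those that passed. Genes named beyond this rule were named after their values were seen. A result for 1 gene is not reported here.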

Additional observations from a re-analysis of the deposited data

Results flagged for a closer look

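For 26 of the 37 genes the difference between DC and Si8 was not the same in cycling-like as in goblet-like cells, and for 26 it was not the same in cluster 3 (edgeR interaction, adjusted p under 0.05, TMM). The genes given here are those with the largest differences among the ones that passed under both scalings. Socs3 had a difference of log2 fold changes of 1.80 in cycling-like cells (SE 0.29, edgeR adjusted p = 0.00268) and 2.37 in cluster 3 (SE 0.43, edgeR adjusted p = 0.00182), its DC minus Si8 value being -2.80 in goblet-like cells, -0.79 in cycling-like cells and 0.08 in cluster 3. Gadd45b differed by 1.60 in cycling-like cells (SE 0.11), from -1.14 in goblet-like to 0.41 in cycling-like cells. Hsph1 differed by -1.27 in cycling-like cells and -2.03 in cluster 3, and Hspa1b by -1.26 and -1.84. Hspa1a differed by -1.67 in cluster 3 (SE 0.18). The causes were not tested.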

How the results depend on the processing

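In goblet-like cells 9 of the 15 genes that passed did so under every alternative tested: Jun, Nr4a1, Nr4a2, Zfp36l1, Btg2, Rasd1, Gadd45b, Plk2 and Hspb1. The other 6 were lost under at least 1 alternative, as given beside their values: Cdkn1a with library totals alone, Gadd45a and Klf6 with thinning, and Atf3, Klf2, Klf6 and Socs3 when single libraries were left out. Genes higher in DC numbered 11, but 25 with library totals alone, 19 with no filter on low counts and 21 with the replicate block. The 11 higher genes became 10 to 14 and the 4 lower ones 3 to 5 when a library was left out. All tested genes that passed numbered 5151, but 7811 with library totals and 2272 with thinning. Hspa8 turned from -0.14 to 0.381 with library totals. Equal weight was also given to the goblet-like clusters 1, 2, 4 and 6, in log2 of CPM + 1 without TMM. Of 19 genes 4 then moved by more than the spread between libraries. None of the 15 genes that passed turned its sign, and the sign of the others was not checked.

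Over all kept cells 9 genes were higher and 2 lower. These became 22 and 0 with library totals, 14 and 5 with no filter and also with the replicate block, and 0 lower with thinning. Leaving out a library gave 4 to 14 higher and 0 to 4 lower. Of all tested genes 3235 passed, against 5141 with library totals, 1668 with thinning, and 1379 to 3967 without a library. The ratio of summed levels was 2.01 in both sets of cells, and 1.4 (goblet-like) and 1.5 (all kept) with TMM-scaled CPM. It was 1.74 to 2.28 and 1.78 to 2.24 with a library left out. Interaction counts with library totals were 10 positive and 11 negative (cycling-like, 21 and 5 with TMM) and 13 and 10 (cluster 3, 20 and 6).

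The labels do not pair the libraries by replicate number. The correlation of same-numbered deviations was 0.202 in goblet-like and 0.111 in all kept cells. With 2 pairs it cannot settle whether same-numbered libraries are paired. The causes of these changes were not tested. Low genes such as Hspb1 in Si8 rest on few UMIs.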
